A study of Mus musculus with 6 samples.

Results

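The genes described here are 31 genes of cholesterol synthesis, uptake and efflux, chosen by name from the rows of a table of 21900 distinct gene symbols. They are 19 enzymes of synthesis, 4 genes of the sterol regulatory element-binding protein 2 (SREBP2) control loop, 2 uptake receptors, 2 efflux pumps and 4 genes of sterol transport and storage inside the cell. All 31 were present in the table, and 30 reached the mean of 1 FPKM (fragments per kilobase of exon, scaled to library size) in either group that was required for testing. The list does not hold every enzyme of the path, and the others are not analysed here.

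The RNA came from inguinal white adipose tissue, a fat depot under the skin of the groin, of C57BL/6 mice that were 2 months old. All mice ate chow at 22 °C and were then kept for 7 days at 4 °C, so cold exposure was common to both groups and no warm group enters the comparison. The 3 control samples carried the floxed gene (Foxp4fl/fl). The 3 knockout samples (Foxp4AdipoQΔ/Δ) had lost the forkhead transcription factor gene Foxp4 through a Cre recombinase under the Adipoq (adiponectin) promoter, which acts in mature fat cells. Controls are labelled only as floxed, so Cre and the loss of Foxp4 cannot be told apart. Whether each sample was 1 mouse or a pool is not stated, so a p-value here speaks only of the spread among these 6 samples. Foxp4 stood at 5.76, 4.01 and 4.62 FPKM among the controls, against 1.92, 1.71 and 1.64 FPKM among the knockouts. All 3 knockouts lay below all 3 controls.

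Cells make cholesterol from acetyl-CoA through mevalonate and farnesyl diphosphate to squalene, lanosterol and a series of sterol intermediates. When membrane sterol is low, Scap carries the precursor of SREBP2 to the Golgi, where it is cut and sent to the nucleus to switch on the genes of synthesis and uptake. Insig1 and Insig2 hold it back when sterol is high. Excess sterol activates the liver X receptors (LXR), which switch on the efflux pumps Abca1 and Abcg1. Fat tissue is a large store of free cholesterol in the body, much of it at the surface of the lipid droplet.

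Most enzymes of synthesis had higher values in the knockouts, whereas the SREBP2 control genes differed little and the pump Abca1 and the receptor Lrp1 had lower values. Over all 10787 genes tested, 1 gene (0.00927%) passed an adjusted p of 0.05 in limma, and it was not among the members. No member passed: the smallest adjusted p was 0.081, for Mvd. Nor was it Foxp4, the deleted gene, which had an adjusted p of 0.070 in limma. At an unadjusted p under 0.05, 8 of the 18 synthesis enzymes tested were higher in the knockouts, where 6.98% of all genes tested were. Of the same 18, Fdft1 was lower, where 17.1% of all genes were. Of the 12 other members, 0 were higher and 2 were lower at that unadjusted p. The median log2 fold change (knockout minus control, on the scale of log2(FPKM + 1)) was 0.38 for the synthesis enzymes, -0.10 for the other members and -0.08 for all genes tested. Fitted values above 0 were found in 15 of the 18 enzymes, against 34% of all genes tested. These shares depend on scaling: after median-of-ratios scaling 13% of all genes were higher and 9.28% lower at that p, 49.8% had fitted values above 0 and their median was -0.001, while 9 enzymes were higher, 0 were lower and 15 lay above 0. With limma-voom on recovered reads, 0 members passed an adjusted p of 0.05. In that fit 8 enzymes were again higher at an unadjusted p under 0.05, where 6.61% of all genes tested were.

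**Figure D1:**
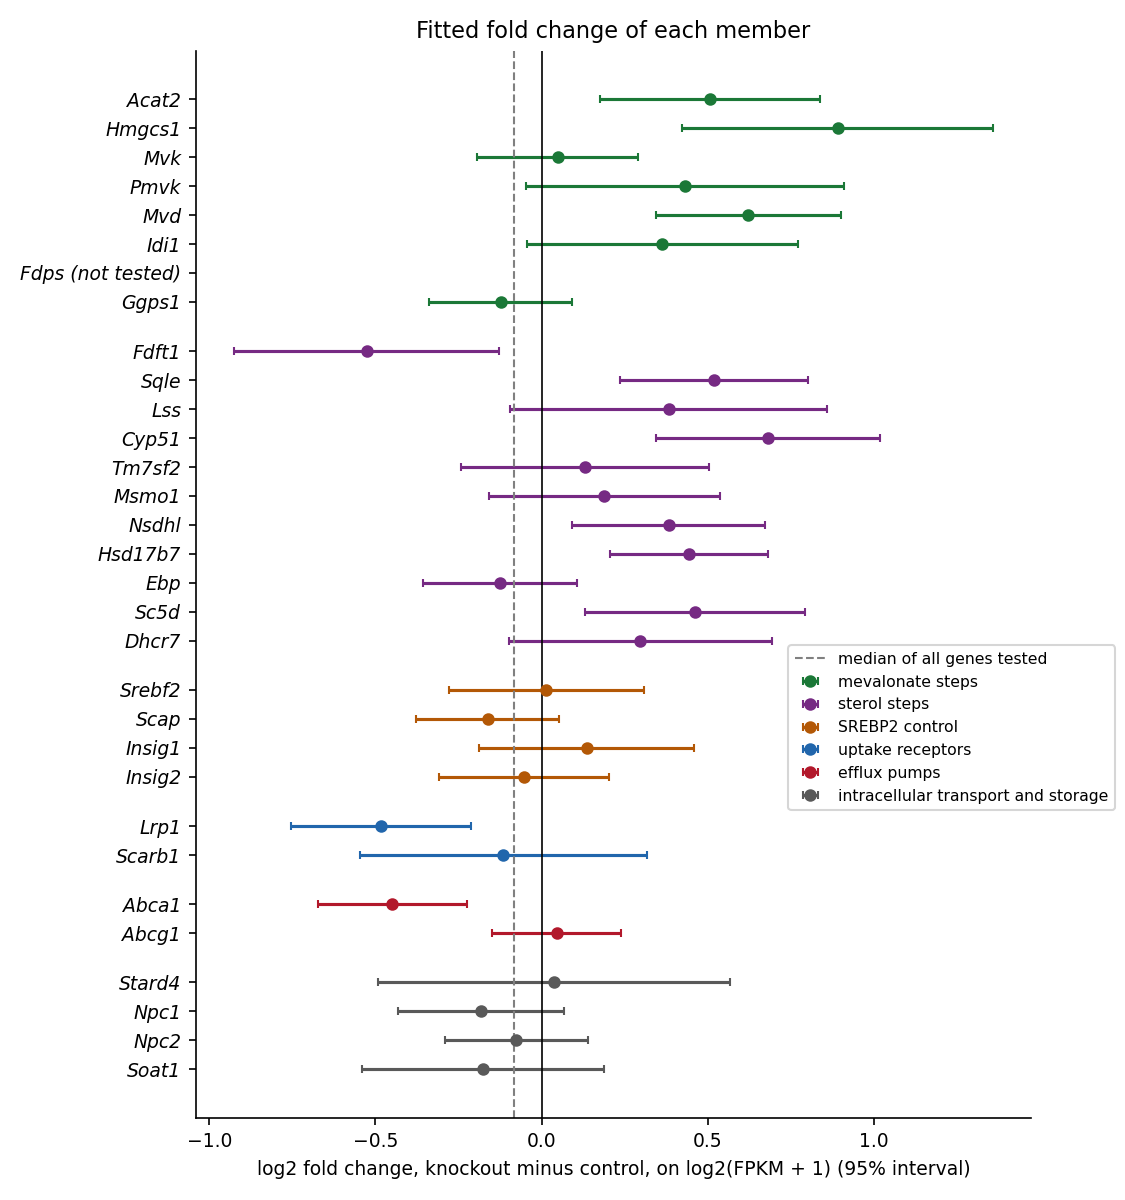
Fitted log2 fold change of each member (horizontal axis, knockout minus control on log2(FPKM + 1), n = 3 and 3) with its 95% interval from limma, grouped by role. Of the 18 synthesis enzymes tested, 15 lie right of 0, and the dashed line marks the median of all genes tested at -0.08.

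The summed level of the 19 synthesis enzymes was 357, 442 and 356 FPKM among the controls against 515, 505 and 559 FPKM among the knockouts. The groups did not overlap, and the highest control was replicate 2. That control was also the highest of its group for 11 of the 19 enzymes, and control replicate 1 was the lowest for 10. Among the knockouts, replicate 2 was the lowest for 12 enzymes and replicate 3 the highest for 9. The 10 markers of thermogenic fat cells also had a higher summed level in the knockouts, at 1647, 2923 and 3423 FPKM among the controls against 4630, 5211 and 3543 FPKM among the knockouts, without overlap. Within the groups the orders differed. Control replicates 1 and 3 had nearly equal sums of the enzymes, but the lowest and the highest thermogenic sum of the controls. Knockout replicate 3, with the highest sum of the enzymes, had the lowest thermogenic sum of the knockouts. All 10 thermogenic markers had fitted values above 0, and 5 were higher at an unadjusted p under 0.05, where 34% and 6.98% of all genes tested were. Their part in the result was not tested.

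The first steps of the path, up to the mevalonate kinases, differed from enzyme to enzyme. Acat2, the thiolase that joins 2 acetyl-CoA units in the cytosol, stood at 60.6, 81.0 and 55.3 FPKM among the controls, against 89.6, 94.1 and 94.0 FPKM among the knockouts. Hmgcs1 (chromosome 13, 119690379 to 119708260, plus strand, mm10), the synthase of hydroxymethylglutaryl-CoA, stood at 35.9, 55.7 and 62.5 FPKM among the controls, against 86.5, 104 and 91.3 FPKM among the knockouts. Every knockout lay above every control for both genes. Hmgcs1 had the largest fitted value of the 30 tested members, a log2 fold change of 0.89 (SE 0.20, 95% interval 0.42 to 1.36, adjusted p = 0.087 in limma), and a ratio of means of 1.83. Without control replicate 1, its lowest library, the log2 fold change was 0.66. For Acat2 it was 0.51 (SE 0.14, adjusted p = 0.11 in limma).

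Mevalonate kinase (Mvk) had nearly equal means, 10.7 ± 0.67 FPKM among the controls against 11.1 ± 1.42 FPKM among the knockouts (SD, n = 3). Its log2 fold change was 0.05, with a 95% interval of -0.19 to 0.29. The next kinase, Pmvk, was at 60.3, 89.2 and 53.8 FPKM among the controls, against 83.5, 79.5 and 108 FPKM among the knockouts, with control replicate 2 above 2 of the knockouts. Its log2 fold change of 0.43 had a 95% interval of -0.05 to 0.91, and was 0.28 without control replicate 3 and 0.64 (unadjusted p = 0.0051 in limma) without control replicate 2. Mvd (chromosome 8, 122433601 to 122443422, minus strand), the decarboxylase that yields isopentenyl diphosphate, was at 11.3, 12.4 and 12.2 FPKM among the controls, against 21.5, 15.8 and 20.2 FPKM among the knockouts. Its controls lay close together and all knockouts lay above them. The log2 fold change of Mvd was 0.62 (SE 0.12, 95% interval 0.34 to 0.90, adjusted p = 0.081 in limma).

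Idi1, the isomerase of isopentenyl diphosphate, was at 7.29, 11.2 and 9.24 FPKM among the controls, against 10.2, 11.5 and 14.7 FPKM among the knockouts, and the groups overlapped through control replicate 2. For Idi1 the log2 fold change came to 0.36 (95% interval -0.04 to 0.77). It was 0.22 without control replicate 1, 0.23 without knockout replicate 3, 0.50 (unadjusted p = 0.024 in limma) without control replicate 2 and 0.47 (0.045) without knockout replicate 1. Ggps1, which turns farnesyl diphosphate to geranylgeranyl diphosphate for protein prenylation and so leaves the sterol path, had 6.39 ± 0.46 FPKM among the controls against 5.79 ± 0.55 FPKM among the knockouts (SD, n = 3). Its log2 fold change was -0.12 (95% interval -0.34 to 0.09).

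Fdps, the farnesyl diphosphate synthase, was the member left out of the test. It was at 0.32, 0.33 and 0.37 FPKM among the controls, against 0.80, 0.68 and 0.63 FPKM among the knockouts. The groups did not overlap, but these values rest on 19, 20 and 25 recovered reads among the controls and 50, 38 and 40 among the knockouts. Of the 1382 bases of its longest annotated transcript, 91.4% were at least 95% identical to 5 other annotated genes, most of which were not in the table. One of these 5 genes also overlaps 1124 exon bases of Fdps on the same strand, and it had 0 to 0.029 FPKM over the 6 libraries. How the counting treated reads that fit several places or several genes is not stated, so the level of Fdps is uncertain.

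Squalene synthase (Fdft1, chromosome 14, 63145150 to 63179578, minus strand), the first enzyme committed to sterols, had the lowest fitted value of the 18 tested enzymes. It was at 22.6, 25.5 and 16.7 FPKM among the controls, against 13.8, 12.7 and 17.2 FPKM among the knockouts. Knockout replicates 1 and 2 lay below all controls, but knockout replicate 3 was above control replicate 3. Its log2 fold change came to -0.53 (SE 0.17, 95% interval -0.93 to -0.13, unadjusted p = 0.017 and adjusted p = 0.14 in limma). The unadjusted p rose above 0.05 in 5 of the 11 alternatives, those without control replicate 1 (0.051) or 2 (0.055), without knockout replicate 1 (0.051) or 2 (0.062), and after median-of-ratios scaling (0.059). Exons of Ctsb, an abundant lysosomal protease gene, overlap 774 bases of Fdft1 on the opposite strand. Another 1248 bases of its transcript are alike in Gm6781, which has no row in the table, and 54.7% of the transcript is shared with either gene. Ctsb had means of 318 FPKM among the controls against 286 FPKM among the knockouts (log2 fold change -0.15). The strand setting of the counting is not given in the sources used here, so reads of the 2 genes may not have been kept apart, and the part of Ctsb and Gm6781 in the Fdft1 value was not tested.

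**Figure D2:**
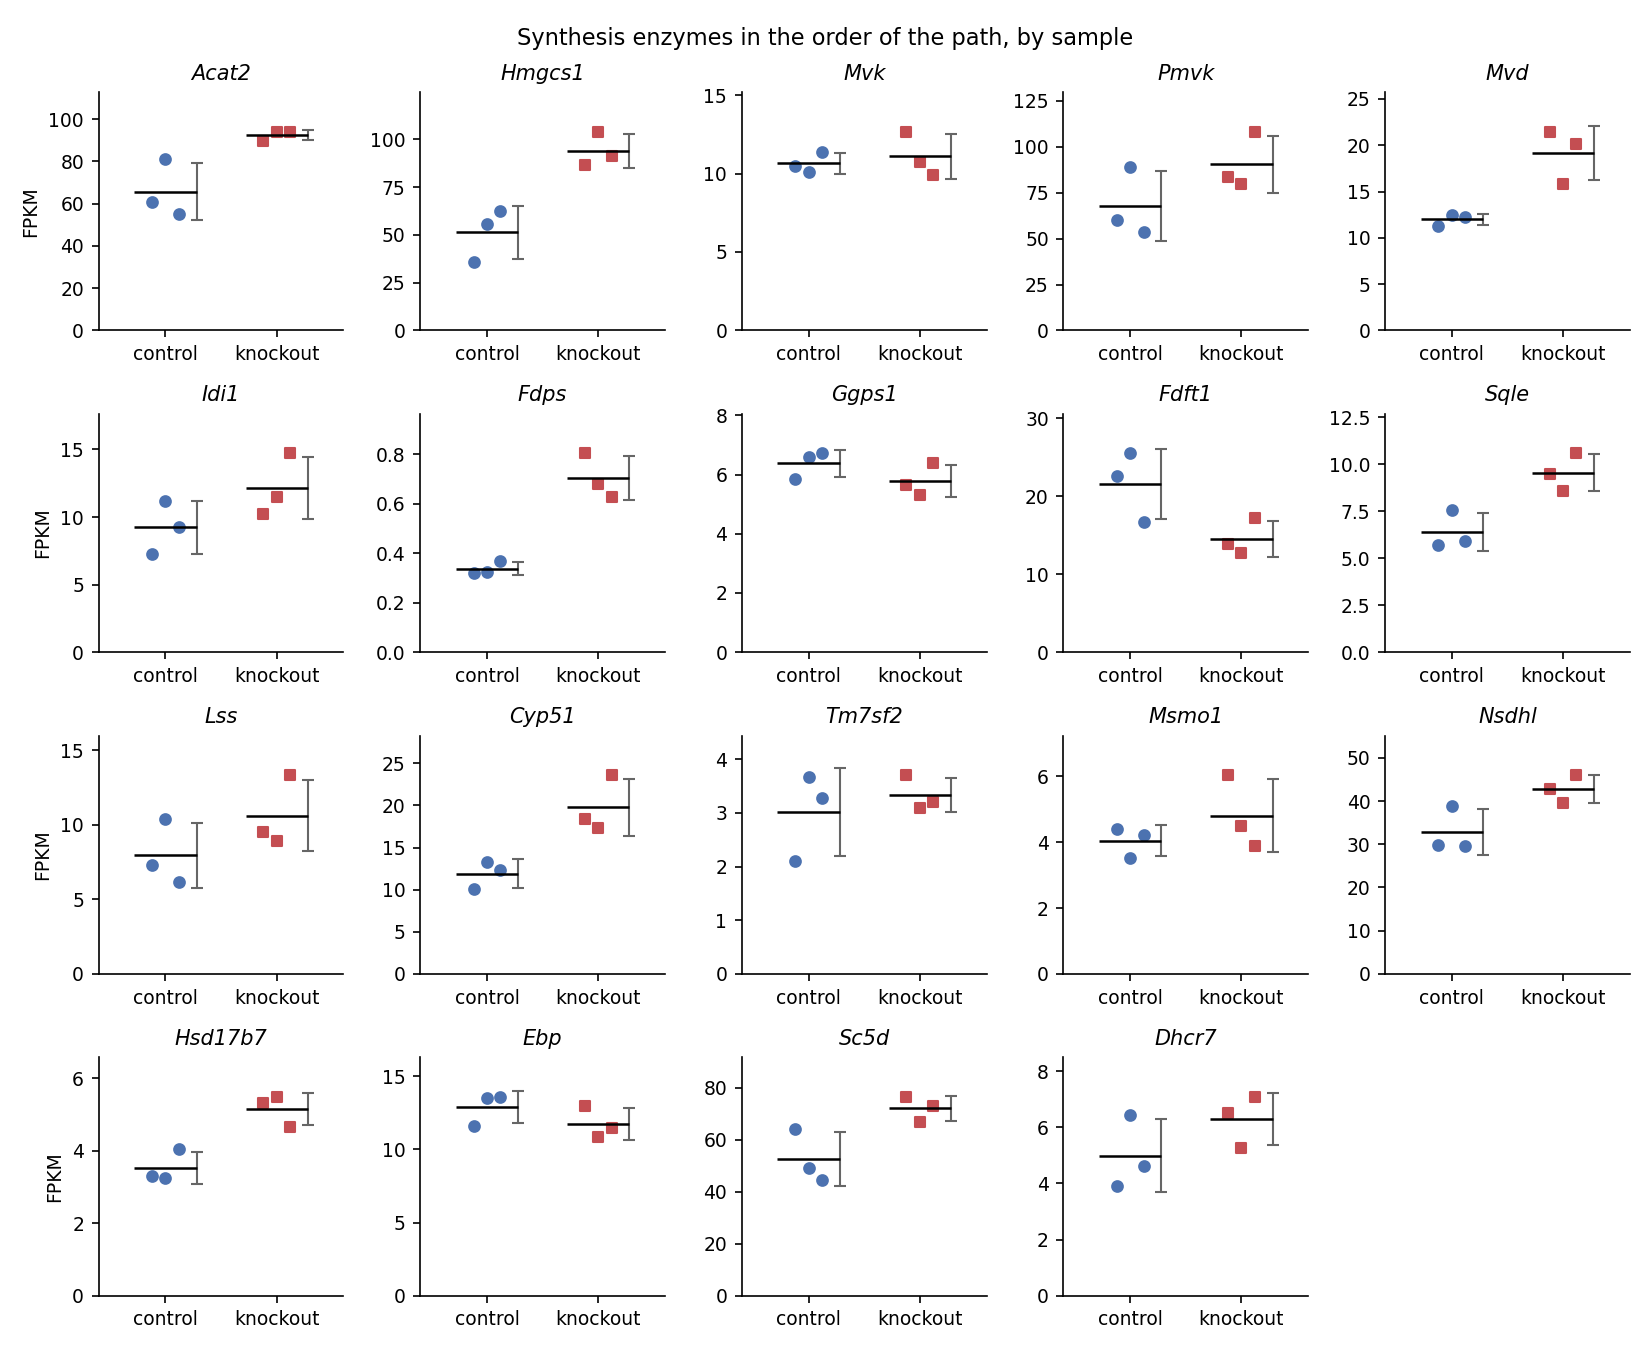
FPKM of each of the 19 synthesis enzymes by sample, in the order of the path (circles, 3 controls; squares, 3 knockouts; black line, group mean; grey bar, SD). Each vertical axis starts at 0 with its own scale. Every knockout of Hmgcs1 (86.5 to 104 FPKM) lies above every control (35.9 to 62.5 FPKM), while 2 knockouts of Fdft1 (12.7 and 13.8 FPKM) lie below every control.

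After squalene, the epoxidase and the lanosterol demethylase had the highest fitted values. Squalene epoxidase (Sqle), a point of control of the path, was at 5.70, 7.54 and 5.90 FPKM among the controls, against 9.45, 8.59 and 10.6 FPKM among the knockouts. Lanosterol demethylase (Cyp51, chromosome 5, 4081145 to 4104746, minus strand) was at 10.1, 13.3 and 12.4 FPKM among the controls, against 18.4, 17.3 and 23.6 FPKM among the knockouts. In both genes each knockout was above each control. A log2 fold change of 0.52 (SE 0.12, adjusted p = 0.089 in limma) was fitted for Sqle and one of 0.68 (SE 0.14, 95% interval 0.35 to 1.02, adjusted p = 0.082 in limma) for Cyp51. Lanosterol synthase (Lss), which acts between them, was at 7.32, 10.4 and 6.14 FPKM among the controls, against 9.53, 8.93 and 13.3 FPKM among the knockouts. Its groups overlapped, and the 95% interval of its log2 fold change of 0.38 ran from -0.09 to 0.86. The value was 0.22 without knockout replicate 3, 0.23 without control replicate 3 and 0.57 (unadjusted p = 0.016 in limma) without control replicate 2.

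The later steps trim methyl groups and shift double bonds. Of the enzymes that remove the methyl groups, Nsdhl was at 29.8, 39.0 and 29.7 FPKM among the controls, against 42.9, 39.6 and 46.0 FPKM among the knockouts. Hsd17b7, the ketosteroid reductase that acts after it, was at 3.30, 3.25 and 4.05 FPKM among the controls, against 5.31, 5.49 and 4.66 FPKM among the knockouts. The groups did not overlap in either gene, though for Nsdhl the lowest knockout was close to the highest control. The log2 fold change was 0.38 for Nsdhl (SE 0.12, adjusted p = 0.14 in limma) and 0.44 for Hsd17b7 (SE 0.10, adjusted p = 0.088 in limma). The unadjusted p of Nsdhl exceeded 0.05 without control replicate 1 (0.054) and without knockout replicate 3 (0.058). Msmo1, the methyl oxidase that acts before them, had overlapping groups, with 4.04 ± 0.475 FPKM among the controls against 4.80 ± 1.11 FPKM among the knockouts (SD, n = 3).

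Sc5d, which sets a double bond in the sterol ring late in the path, was at 64.2, 49.2 and 44.4 FPKM among the controls, against 76.4, 67.0 and 72.8 FPKM among the knockouts. All knockouts were above all controls, and its fitted log2 difference came to 0.46 (SE 0.14, adjusted p = 0.13 in limma). Dhcr7, the reductase that turns dehydrocholesterol to cholesterol, was at 3.90, 6.44 and 4.61 FPKM among the controls, against 6.50, 5.27 and 7.08 FPKM among the knockouts, with overlap and a log2 fold change of 0.30 (95% interval -0.10 to 0.69). That of Dhcr7 was 0.17 without control replicate 1 and 0.47 (unadjusted p = 0.013 in limma) without control replicate 2. Both remaining late enzymes had small differences within overlapping groups. Tm7sf2, a sterol reductase, had a log2 fold change of 0.13 (95% interval -0.24 to 0.50), and it was -0.04 without control replicate 1. Ebp, a sterol isomerase, had -0.13 (95% interval -0.36 to 0.11).

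Of all 18 tested synthesis enzymes, 8 had every knockout above every control, where 8.48% of all genes tested did, and 0 had every knockout below, where 22.7% did. Near-identical copies bear on Acat2 as well, since 1477 of the 2250 bases of its transcript are alike in the gene Acat3. Of these, 445 bases are also alike in Tcp1, which had means of 24.8 FPKM among the controls and 25.9 FPKM among the knockouts. The part of Tcp1 in the Acat2 value was not tested. Acat3 itself had 0.23 to 1.10 FPKM among the controls against 0.30 to 0.59 FPKM among the knockouts, so few reads were assigned to it. An antisense gene, Gm48342, overlaps 557 exon bases of Hmgcs1 and had no row of its own in the table. Sqle, Mvd, Nsdhl, Hsd17b7 and Sc5d had neither such a copy nor an overlapping exon. Cyp51 shares 166 exon bases with Akap9 on the opposite strand, whose means were 2.57 and 2.14 FPKM in controls and knockouts. Of the Idi1 transcript 33.3% is alike in 3 other genes, and of the Ggps1 transcript 27.3% is alike in Gm5630 and Arid4b. Lss and Tm7sf2 overlap exons of another gene.

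**Figure D3:**
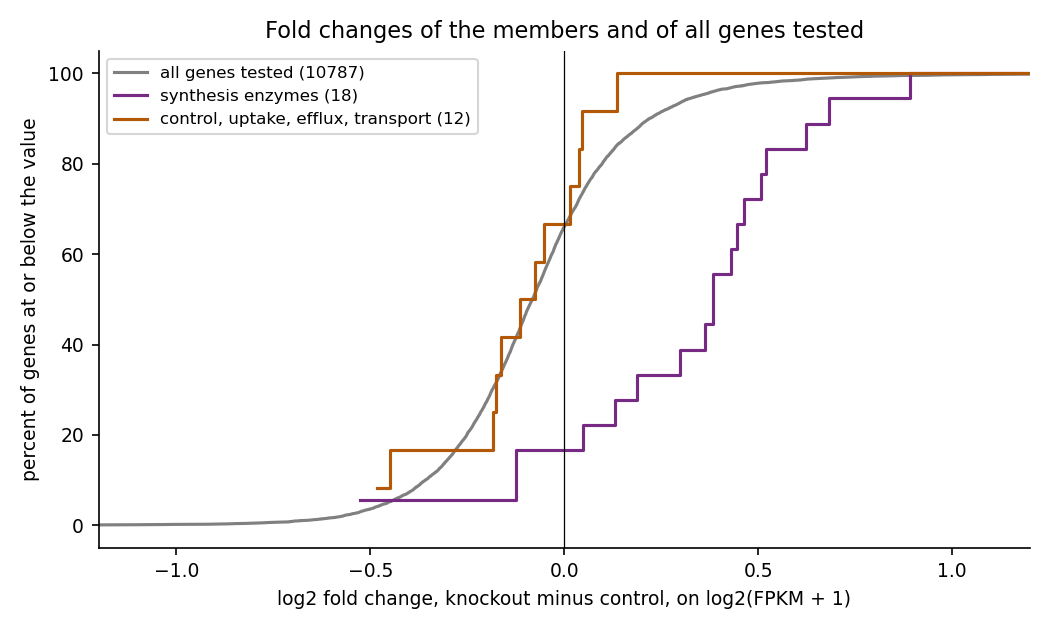
Cumulative percentage of genes (vertical axis) at or below a log2 fold change (horizontal axis, knockout minus control on log2(FPKM + 1)) for all 10787 genes tested, the 18 synthesis enzymes and the 12 other members. The curve of the enzymes lies right of that of all genes over most of its length (medians 0.38 and -0.08), and the curve of the other members stays near that of all genes (median -0.10).

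Promoters are shown for some of the members whose groups did not overlap, since SREBP2 is known to act with the factor NF-Y on promoters of this path. The windows of Acat2, Nsdhl and Sc5d, whose knockouts also all lay above the controls, are not printed. That of Acat2 held neither motif searched below, and those of Nsdhl and Sc5d held CCAAT. NF-Y binds the letters CCAAT, and SREBP2 binds the sterol regulatory element, searched here as TCACNCCAC. RefSeq windows (GRCm38.p6) of 250 bases before to 50 bases after a start site were held for 24 of the 31 members. Sqle, Fdps and Fdft1 were among the members without a window. In 26 of the 30 windows, the 25 bases after the start site were found in a GENCODE transcript of the gene. Distances below are from the RefSeq start. Both strands were searched. Each window is printed from its 5′ end, and capitals mark a match to either motif as written or, for ATTGG, its reverse complement. The first 4 belong to enzymes with higher values in the knockouts, the last 2 to genes with lower values.
Hmgcs1, chr13:119690101-119690400, plus strand: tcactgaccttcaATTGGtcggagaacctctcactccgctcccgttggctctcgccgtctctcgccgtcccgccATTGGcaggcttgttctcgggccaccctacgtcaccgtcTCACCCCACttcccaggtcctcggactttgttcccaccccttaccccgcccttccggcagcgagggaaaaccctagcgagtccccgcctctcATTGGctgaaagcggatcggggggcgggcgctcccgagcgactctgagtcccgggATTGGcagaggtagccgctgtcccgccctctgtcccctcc
Mvd, chr8:122443373-122443672, minus strand: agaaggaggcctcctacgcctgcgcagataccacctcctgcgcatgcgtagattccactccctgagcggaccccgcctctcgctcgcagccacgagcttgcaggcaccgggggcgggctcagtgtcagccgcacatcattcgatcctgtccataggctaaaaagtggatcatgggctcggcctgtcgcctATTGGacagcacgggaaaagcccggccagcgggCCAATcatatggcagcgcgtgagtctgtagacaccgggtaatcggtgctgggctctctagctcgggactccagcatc
Cyp51, chr5:4104648-4104947, minus strand: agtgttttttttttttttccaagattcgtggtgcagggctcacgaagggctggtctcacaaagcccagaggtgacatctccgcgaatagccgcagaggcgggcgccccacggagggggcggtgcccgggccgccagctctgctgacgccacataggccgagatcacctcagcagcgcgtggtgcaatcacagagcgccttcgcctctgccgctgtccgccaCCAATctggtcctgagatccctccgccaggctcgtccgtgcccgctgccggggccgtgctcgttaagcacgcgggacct
Hsd17b7, chr1:169969156-169969455, minus strand: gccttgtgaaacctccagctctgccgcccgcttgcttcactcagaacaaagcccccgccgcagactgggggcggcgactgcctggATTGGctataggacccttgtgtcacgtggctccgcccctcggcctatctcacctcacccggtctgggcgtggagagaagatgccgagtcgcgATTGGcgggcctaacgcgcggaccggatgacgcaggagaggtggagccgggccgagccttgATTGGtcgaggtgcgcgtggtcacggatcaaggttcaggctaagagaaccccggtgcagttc
Lrp1, chr10:127621099-127621398, minus strand: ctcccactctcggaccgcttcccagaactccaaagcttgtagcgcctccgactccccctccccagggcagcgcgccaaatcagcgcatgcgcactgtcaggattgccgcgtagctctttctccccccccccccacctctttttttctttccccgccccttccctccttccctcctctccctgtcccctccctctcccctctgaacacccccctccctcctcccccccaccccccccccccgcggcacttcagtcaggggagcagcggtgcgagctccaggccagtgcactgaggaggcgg
Abca1, chr4:53159846-53160145, minus strand: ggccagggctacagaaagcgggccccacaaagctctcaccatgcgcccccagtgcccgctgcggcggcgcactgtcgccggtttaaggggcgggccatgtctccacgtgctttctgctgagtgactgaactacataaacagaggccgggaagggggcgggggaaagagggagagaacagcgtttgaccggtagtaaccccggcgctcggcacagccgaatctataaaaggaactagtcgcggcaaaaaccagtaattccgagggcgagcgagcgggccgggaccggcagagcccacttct

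Of the 16 synthesis enzymes with a window, 15 (93.8%) held CCAAT on either strand in at least 1 window, against 42.7% of the 8601 tested genes with a window. By window, 15 of their 19 held it, against 37.4% of all 32851 windows. Among the 7 of these enzymes that were higher at an unadjusted p under 0.05, 6 held it, and Acat2 did not. The sequence thus did not separate the enzymes with higher values from the rest, since Mvk, Ggps1 and Ebp, with fitted values near or below 0, held it too. The other 8 members with a window held it in 5 cases, and Lrp1 and Abca1 were not among them. TCACNCCAC was found in 1 member, Hmgcs1, where it began 137 bases before the start site, against 1.34% of tested genes. The 2 motifs did not overlap in these windows. A match describes letters and is not a bound site, and a missing match says only that these letters are not in this window.

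The 4 genes that control SREBP2 had overlapping groups, and 0 had an unadjusted p under 0.05 in limma or limma-voom. Srebf2, which encodes the factor, was at 8.33, 6.88 and 9.27 FPKM among the controls, against 8.74, 8.80 and 7.15 FPKM among the knockouts. The groups overlapped, and the log2 fold change was 0.01 (95% interval -0.28 to 0.31). Scap, its escort protein, had 5.70 ± 0.46 FPKM among the controls against 4.99 ± 0.44 FPKM among the knockouts (SD, n = 3), with a log2 fold change of -0.16 (95% interval -0.38 to 0.05). Insig1, itself a known target of SREBP2 and the member with the highest level, was at 171, 171 and 156 FPKM among the controls, against 216, 186 and 151 FPKM among the knockouts. Its knockouts spanned both ends of the range, and the log2 fold change was 0.14 (95% interval -0.19 to 0.46). Insig2 was at 19.5, 15.7 and 14.7 FPKM among the controls, against 16.0, 16.2 and 15.6 FPKM among the knockouts, and its fitted value of -0.05 became 0.04 after median-of-ratios scaling.

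The uptake receptors were Lrp1, a large receptor that takes up lipoprotein remnants and many other ligands, and Scarb1, which takes up sterol esters from high-density lipoprotein. Lrp1 (chromosome 10, 127538161 to 127621148, minus strand) was at 36.0, 30.8 and 36.5 FPKM among the controls, against 26.6, 20.99 and 25.7 FPKM among the knockouts. Every knockout was below every control. Lrp1 had a log2 fold change of -0.48 (SE 0.12, 95% interval -0.75 to -0.21, adjusted p = 0.092 in limma). Scarb1 was at 14.9, 12.6 and 18.7 FPKM among the controls, against 17.7, 11.5 and 13.4 FPKM among the knockouts, with wide overlap and a log2 fold change of -0.12 (95% interval -0.55 to 0.32).

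The efflux pumps did not share a direction. Abca1 (chromosome 4, 53030787 to 53159895, minus strand), which loads cholesterol onto lipid-poor apolipoprotein, was at 27.98, 24.8 and 24.6 FPKM among the controls, against 19.2, 16.7 and 20.1 FPKM among the knockouts. The groups did not overlap, with a log2 fold change of -0.45 (SE 0.095, 95% interval -0.67 to -0.22, adjusted p = 0.082 in limma). Abcg1, which passes cholesterol to mature high-density lipoprotein, was at 1.99, 2.06 and 1.81 FPKM among the controls, against 1.99, 2.09 and 2.06 FPKM among the knockouts. Its log2 fold change was 0.05 (95% interval -0.15 to 0.24), on 203 to 228 recovered reads per library. Of the 12 members outside synthesis, 2, Lrp1 and Abca1, had every knockout below every control, where 22.7% of all genes tested did, so the count itself is near the background.

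Macrophages, like fat cells, express Abca1 and Lrp1, and markers of macrophages were lower in the same samples. The summed level of the 15 macrophage markers was 618, 688 and 824 FPKM among the controls against 394, 423 and 508 FPKM among the knockouts, without overlap. Of the 14 tested, 13 were lower at an unadjusted p under 0.05, where 17.1% of all genes tested were. The median log2 fold change over the list was -0.63. Lyz2 had 266 ± 27.5 FPKM among the controls against 164 ± 34.3 FPKM among the knockouts, and C1qa had 130 ± 21.8 and 79.2 ± 5.90 FPKM (SD, n = 3). Within the groups, control replicate 3 had the highest macrophage sum and the highest Lrp1, at 36.5 FPKM against 36.0 FPKM in control replicate 1. Knockout replicate 3 had the highest macrophage sum and the highest Abca1 of the knockouts. Other orders differed: control replicate 1 had the lowest macrophage sum and the highest Abca1 of the controls. Knockout replicate 1 had the lowest macrophage sum and the highest Lrp1 of the knockouts. The 10 markers of progenitors and fibroblasts had 5 lower at an unadjusted p under 0.05, beside the same 17.1% of all genes tested. Their sums were 514 to 1228 FPKM among the controls against 490 to 625 FPKM among the knockouts. In whole tissue, fewer cells of a type and less RNA per cell cannot be told apart, and the part of these cells in the values of Abca1 and Lrp1 was not tested.

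**Figure D4:**
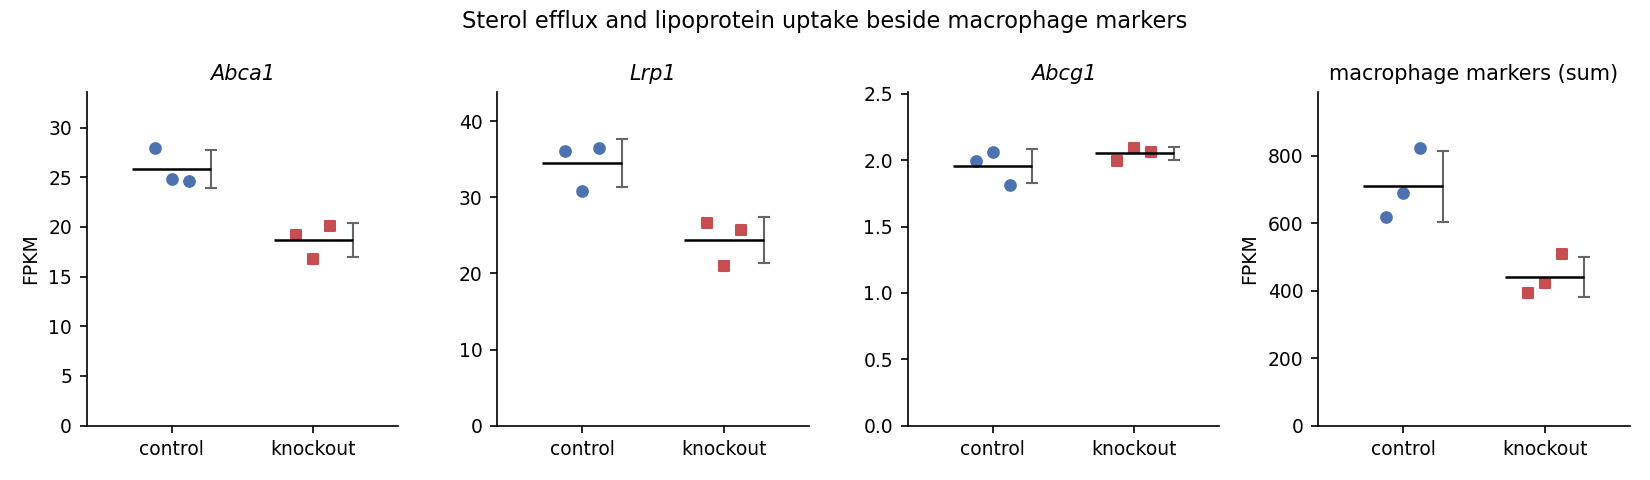
FPKM of Abca1, Lrp1, Abcg1 and the sum of 15 macrophage markers by sample (circles, 3 controls; squares, 3 knockouts; black line, mean; grey bar, SD; axes start at 0). Knockouts lie below controls for Abca1 (16.7 to 20.1 against 24.6 to 27.98 FPKM), Lrp1 and the macrophage sum, while Abcg1 overlaps.

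The genes of sterol transport and storage inside the cell had overlapping groups throughout. Npc1 and Npc2, which together export cholesterol from lysosomes, had 3.60 ± 0.52 and 88.5 ± 4.85 FPKM among the controls against 3.04 ± 0.24 and 84.0 ± 6.89 FPKM among the knockouts (SD, n = 3). The log2 fold change was -0.18 (95% interval -0.43 to 0.07) for Npc1 and -0.08 (95% interval -0.29 to 0.14) for Npc2, which was 0.02 after median-of-ratios scaling. Stard4, a soluble sterol carrier known as a target of SREBP2, was at 2.39, 1.35 and 2.80 FPKM among the controls, against 2.68, 2.63 and 1.45 FPKM among the knockouts. Both groups held a low library, and the log2 fold change of 0.04 had the widest 95% interval of this group of genes, -0.49 to 0.57. Soat1, which esterifies cholesterol for storage, was at 1.12, 0.66 and 1.45 FPKM among the controls, against 0.73, 0.92 and 0.80 FPKM among the knockouts, and it was tested because the control mean exceeded 1 FPKM. Its log2 fold change was -0.18, and -0.33 (unadjusted p = 0.037 in limma) without control replicate 2.

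Another 71 genes of the pathway were listed beside the members, of which 63 were tested. At an unadjusted p under 0.05, 8 were higher and 7 were lower in the knockouts, where 6.98% and 17.1% of all genes tested were. Of the 63, 0 passed an adjusted p of 0.05 over all genes tested, by limma or by limma-voom. Their median log2 fold change was -0.04. These lists hold 4 to 15 tested genes each, and counts of 1 or 2 in them are read against those same shares. Of 9 other genes of SREBP processing, 0 were higher and 2 were lower: Mbtps1, the protease that makes the first cut in SREBP, with 11.8 ± 0.24 and 9.92 ± 0.76 FPKM, and Erlin1, with 4.46 ± 0.53 and 3.50 ± 0.26 FPKM in controls and knockouts (SD, n = 3). The lower count is near the share of 17.1% over all genes tested. All 9 had fitted values below 0, with a median of -0.09, close to that of all genes tested.

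Of 9 genes listed as further targets of SREBP, 3 were higher and 1 was lower at an unadjusted p under 0.05. Over all genes tested, 6.98% were higher and 17.1% were lower at that p. The median log2 fold change of the 9 genes was 0.24, against -0.08 for all genes tested. Fitted values lay above 0 in 6 of them, where 34% of all genes tested did. The lipid phosphatase gene Lpin1 had 52.7 ± 5.60 and 66.7 ± 2.90 FPKM, and the acetoacetyl-CoA synthetase gene Aacs had 137 ± 6.85 and 163 ± 14.8 FPKM (SD, n = 3). The third was the acetyl-CoA synthetase gene Acss2, with a log2 fold change of 0.49. The lower gene was Mylip, a ubiquitin ligase that removes lipoprotein receptors and is known as a target of LXR rather than of SREBP. It was at 13.7, 11.7 and 15.4 FPKM among the controls, against 8.78, 8.25 and 9.93 FPKM among the knockouts, without overlap, and had a log2 fold change of -0.54 (adjusted p = 0.082 in limma).

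Of 9 tested genes of efflux and LXR, 1 was higher and 2 were lower at an unadjusted p under 0.05. Nr1h2, which encodes LXR beta, was at 22.9, 23.4 and 23.9 FPKM among the controls, against 17.2, 19.5 and 18.3 FPKM among the knockouts, with a log2 fold change of -0.34 (adjusted p = 0.085 in limma). The phospholipid transfer protein gene Pltp had a log2 fold change of -0.43. The higher gene was Lpcat3, which remodels phospholipids and is known as an LXR target, with 38.3 ± 3.16 FPKM among the controls against 47.9 ± 3.10 FPKM among the knockouts (SD, n = 3). The median log2 fold change of the 9 genes was 0.01.

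The other lists were smaller or mixed. Of 7 tested lipoprotein receptors and adaptors, 1 was higher and 2 were lower at an unadjusted p under 0.05. The sorting receptor Sorl1 was at 13.4 to 19.8 FPKM among the controls and at 24.5 to 26.4 FPKM among the knockouts, without overlap. Sorl1 had a log2 fold change of 0.59 (adjusted p = 0.088 in limma), while the related receptor Sort1 had -0.34 and the chaperone of the receptor family, Lrpap1, had -0.31. Of 15 tested genes of sterol transport, 1 was higher and 0 were lower: the carrier Stard5, with 4.65 ± 0.29 and 6.33 ± 0.62 FPKM (SD, n = 3). Among 4 tested genes of sterol storage and release, the lysosomal lipase gene Lipa was higher, with 17.6 ± 3.31 and 23.8 ± 1.92 FPKM, and 0 were lower. Of the 10 genes of the non-sterol branch, which carry isoprenoids to dolichol, coenzyme Q and prenylated proteins, 1 was higher and 0 were lower. It was Pdss1, of coenzyme Q synthesis, with 1.86 ± 0.15 and 2.68 ± 0.40 FPKM (SD, n = 3).

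The libraries held 13182518 to 16000935 recovered reads. Markers of fat cells, the labelled tissue, were abundant, with Fabp4 at 2539 ± 274 FPKM among the controls against 2483 ± 42.1 FPKM among the knockouts, and Cfd at 6162 ± 419.9 and 4000 ± 420.5 FPKM (SD, n = 3). Of the 9 markers of mature fat cells, 0 were higher and 3 were lower at an unadjusted p under 0.05, where 6.98% and 17.1% of all genes tested were. Their summed level was 12141, 12209 and 11280 FPKM among the controls against 9296, 8664 and 9458 FPKM among the knockouts, without overlap. Fitted values lay below 0 in 8 of the 9, where 7121 of the 10787 genes tested did. Their median log2 fold change was -0.10, beside -0.08 for all genes tested. The summed level of the 9 mammary and skin epithelial markers, from cells that can make much sterol, was 0.73 to 1.89 FPKM among the controls against 0.28 to 0.84 FPKM among the knockouts, and Krt14 was at 0 in every library. Lymph node markers summed to 2.02 to 4.66 FPKM over all 6 libraries. Skeletal muscle markers summed to 15.3 to 64.1 FPKM among the controls against 19.4 to 290.1 FPKM among the knockouts, highest in knockout replicate 3. Their part in the members' values was not tested. The erythroid sum was 977 to 1951 FPKM among the controls against 580 to 1099 FPKM among the knockouts. Of 7 endothelial markers 0 were higher and 1 was lower at an unadjusted p under 0.05, beside those same shares of 6.98% and 17.1%.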

How the data were processed

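RNA of 6 samples, 3 controls and 3 knockouts, was sequenced on an Illumina instrument from libraries that keep strand, per the labels' protocols. The authors deposited 1 table of FPKM values per gene and sample. The submitters' processing notes name cutadapt, HISAT2, HTSeq and mm10, with no versions, annotation or settings. The unit was read from the values: FPKM times merged exon length (GENCODE M21, same build) and 1 factor per library came out whole (tolerance 0.05 reads) in 97.9 to 98.1% of those values that hold 50 reads or fewer. For 36 rows that repeat a symbol, the row with the higher mean was used.

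Members, lists and tests were chosen with earlier results of these data known. Every member is named, with Foxp4, up to 3 genes of each pathway list by unadjusted p, and up to 2 markers of each cell type by level. Genes that overlap a member or share its sequence (Ctsb, Acat3, Tcp1, Gm48342, Akap9), Acss2 and Krt14 were added after values were seen. Testing required a group mean of 1 FPKM or more and used limma (3.58.1, R 4.3.3), two-sided, on log2(FPKM + 1), with a trended variance, genotype as sole term and Benjamini-Hochberg adjustment over all genes tested at a threshold of 0.05. Fold changes on this scale understate those of low genes. With 3 against 3, the smallest two-sided p of an exact permutation test is 0.10. The fit was tested on simulated data, drawn independently for each gene and sample and so without shifts shared by a whole library. Alike sequence was sought with BLAST 2.17.0 (at least 95% identity over 200 bases). Alternatives were a pseudocount of 0.1, no filter, median-of-ratios scaling, a replicate block, each library left out in turn, and limma-voom on recovered reads.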

Additional observations from a re-analysis of the deposited data

How the results depend on the processing

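Under all 11 alternatives the number of synthesis enzymes higher at an unadjusted p under 0.05 stayed between 7 and 12, the median of the synthesis enzymes stayed between 0.30 and 0.48, and Acat2, Hmgcs1, Mvd, Sqle, Cyp51, Hsd17b7, Sc5d, Lrp1 and Abca1 each kept their direction and an unadjusted p under 0.05. No member passed an adjusted p of 0.05 in any of them. When 1 library was left out, the enzymes numbered 7 (without control replicate 1 or knockout replicate 3) to 12 (without control replicate 2). Their medians were 0.30 to 0.48. In these fits 5.1%, 7.29% and 6.31% of all genes tested were higher at that unadjusted p, in that order. Over the 11 alternatives this share ran from 3.73% (without knockout replicate 2) to 13% (median-of-ratios scaling). The number of genes called over all genes tested was 1 as reported, 0 without a filter, 0 with the replicate block and 0 with limma-voom, and 0 to 5 when 1 library was left out, with 5 without control replicate 3, 3 without knockout replicate 3, and 0 without control replicate 1 or knockout replicate 1. The cause was not tested. In the same fits 2980 genes without a filter, 2218 with the block and 2575 with limma-voom had an unadjusted p under 0.05. After median-of-ratios scaling the higher genes at an unadjusted p under 0.05 made up 13% of all genes and the lower ones 9.28%, against 6.98% and 17.1% as deposited, and 9 synthesis enzymes were higher and 0 lower. Members with fitted values near 0 (Mvk, Tm7sf2, Srebf2, Insig2, Scarb1, Stard4, Npc2) changed sign in at least 1 alternative.

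No pairing of the samples by replicate number was seen. Deviations from the group means of same-numbered samples had correlations of 0.06, 0.03 and -0.25, and 0 of the 6 samples correlated best with its own number. With 3 samples a group, such correlations cannot show that no pairing exists. With the replicate block, 9 synthesis enzymes were higher at an unadjusted p under 0.05, where 5.92% of all genes tested were. With 3 samples a group, the precision of each value is that of its interval.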
